A study of Caenorhabditis elegans with 2 samples.

Results

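The genes described here are the membrane trafficking and vacuolar ATPase genes of *Caenorhabditis elegans*, taken as the protein-coding genes whose names begin with sec-, vps-, rab-, snx- or vha-. This rule found 97 of the 19973 nuclear protein-coding genes, of which 19 are sec, 31 vps, 20 rab, 7 snx and 20 vha genes. Occupancy of their promoters by the nuclear hormone receptor NHR-85 was read from ChIP-seq, which sequences DNA recovered with a protein. There was 1 group of 2 biological replicates: whole hermaphrodite L1 larvae of strain OP539, genotype unc-119(tm4063) III; wgIs539, whose integrated transgene expresses NHR-85 with a GFP-FLAG tag at its C-terminus. The larvae had been synchronized by starvation after bleaching and were collected 6 h later, and whether they were fed in that time is not stated. DNA was recovered with an antibody to GFP. The group therefore reports a tagged receptor made from a transgene in a strain with a mutant unc-119 allele, no untagged larvae were analysed here, and whole animals do not resolve tissues.

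The sec genes serve entry of proteins into the endoplasmic reticulum, their export in coated vesicles, and the tethering of vesicles at the plasma membrane. The vps genes act mostly on the route to the vacuole or lysosome, in the ESCRT, HOPS, CORVET, retromer and GARP complexes. Rab proteins are small GTPases that mark membranes and recruit tethers and motors, sorting nexins (snx) bind membrane lipids of endosomes, and the vha genes encode the proton pump that acidifies lysosomes and other compartments. NHR-85 is a nuclear receptor related to mammalian Rev-Erb.

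A gene was counted as having a promoter summit when the highest point of a deposited peak lay between 1000 bp upstream and 200 bp downstream of any of its transcript starts. The strictest of the 4 lists holds 2404 peaks and was deposited as thresholded by irreproducible discovery rate (here the IDR list). The others are the 8389 peaks called on the pooled reads, the 8092 peaks of replicate 1 and the 13289 peaks of replicate 2. Every IDR summit of the 97 genes had the same signal and rank in the pooled list, down to rank 2368 at sec-16A.2. At these genes, presence in the IDR list thus followed a cut on pooled signal, and not a test of each peak between replicates. The DNA under 14 IDR summits follows, so that the strongest summits can be read as sequence. Shown are up to 3 of the strongest in each name group, without vps-25, rab-11.1 and rab-5, whose sequence is not printed here. Also shown is sec-15, the only one of the 25 with the half-site named below within 50 bases of the summit. Each run spans 50 bases to each side of the summit in the RefSeq WBcel235 (ce11) assembly, 5′ to 3′ on the strand of the gene. Capitals mark matches on either strand to AGGTCA, a half-site of nuclear receptors. They also mark CACGTG, the E-box bound by the HLH-30 factor, and TGATAA, a site of intestinal transcription factors of the GATA family. Further motifs are the repeat GAGAGA and the sequences GTCTCG, which 7 of the 14 runs hold, and ACGCAG, which 4 hold, and matches that overlap run together.
sec-61.G (chrV:10897328-10897428, minus strand): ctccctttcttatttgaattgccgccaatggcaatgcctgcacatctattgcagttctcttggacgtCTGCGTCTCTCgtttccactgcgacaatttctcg
sec-61.B (chrIV:2389109-2389209, minus strand): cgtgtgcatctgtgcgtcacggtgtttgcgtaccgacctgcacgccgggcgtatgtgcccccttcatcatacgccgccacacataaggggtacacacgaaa
sec-61.A (chrIV:14825085-14825185, minus strand): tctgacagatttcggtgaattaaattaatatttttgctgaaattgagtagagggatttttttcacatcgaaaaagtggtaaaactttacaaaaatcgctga
sec-15 (chrX:8835919-8836019, minus strand): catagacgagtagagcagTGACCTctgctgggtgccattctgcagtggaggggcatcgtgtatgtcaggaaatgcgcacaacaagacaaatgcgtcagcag
vps-32.1 (chrII:6589050-6589150, plus strand): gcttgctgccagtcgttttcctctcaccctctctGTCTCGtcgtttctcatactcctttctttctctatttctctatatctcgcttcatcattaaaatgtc
vps-60 (chrV:8606425-8606525, minus strand): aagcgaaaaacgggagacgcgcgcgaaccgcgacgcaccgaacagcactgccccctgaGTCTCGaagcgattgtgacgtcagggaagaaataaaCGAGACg
vps-22 (chrIII:4963080-4963180, minus strand): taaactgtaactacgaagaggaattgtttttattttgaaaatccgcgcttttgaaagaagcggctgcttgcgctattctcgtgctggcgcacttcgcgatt
rab-18 (chrIII:1080696-1080796, minus strand): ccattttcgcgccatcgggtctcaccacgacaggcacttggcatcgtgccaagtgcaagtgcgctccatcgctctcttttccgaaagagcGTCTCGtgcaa
rab-7 (chrII:11967674-11967774, minus strand): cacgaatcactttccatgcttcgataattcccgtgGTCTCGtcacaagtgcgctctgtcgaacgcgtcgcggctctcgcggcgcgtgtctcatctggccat
snx-17 (chrX:13120068-13120168, minus strand): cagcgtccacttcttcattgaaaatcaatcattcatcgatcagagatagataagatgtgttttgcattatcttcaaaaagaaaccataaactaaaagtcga
snx-13 (chrIV:17087617-17087717, minus strand): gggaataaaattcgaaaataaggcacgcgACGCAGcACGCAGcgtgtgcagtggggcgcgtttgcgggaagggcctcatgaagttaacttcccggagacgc
vha-12 (chrX:4190686-4190786, plus strand): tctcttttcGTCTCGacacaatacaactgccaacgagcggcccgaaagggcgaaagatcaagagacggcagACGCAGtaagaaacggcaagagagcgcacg
vha-8 (chrIV:6790567-6790667, plus strand): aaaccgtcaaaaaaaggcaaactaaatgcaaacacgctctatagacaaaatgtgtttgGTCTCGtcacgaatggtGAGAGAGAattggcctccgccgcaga
vha-15 (chrX:2237603-2237703, plus strand): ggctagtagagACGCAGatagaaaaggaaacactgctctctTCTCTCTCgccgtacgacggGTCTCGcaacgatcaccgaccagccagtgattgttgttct
The run at sec-61.G carries a match to GAGAGA that overlaps one to ACGCAG by 1 base. Capitals in the vha-12 and vha-15 runs include both of the last motifs. No capitals fall in the sec-61.B, sec-61.A, vps-22 and snx-17 runs. At sec-15 the half-site is written as its reverse complement.

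An IDR summit lay in the promoter of 25 of the 97 genes (25.8%, 95% Wilson interval 18.1 to 35.3%), against 8.09% of all protein-coding genes, a share 3.19 times as high. The pooled list gave 50 of 97 genes (51.5%), against 19.4% of all genes. Replicate 1 gave 47 of 97 (48.5%), against 18%, and replicate 2 gave 58 of 97 (59.8%), against 25.7%. In each list the share was thus above that of all genes, and the lower end of its interval lay above it too. These intervals cover counting error only and treat genes as independent, and no test of the gene set was run.

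By name group, the IDR shares were 7 of 19 sec genes (36.8%, 19.1 to 59.0%), 8 of 31 vps genes (25.8%, 13.7 to 43.2%) and 4 of 20 rab genes (20%, 8.07 to 41.6%). They were 2 of 7 snx genes (28.6%, 8.22 to 64.1%) and 4 of 20 vha genes (20%, 8.07 to 41.6%). All 5 intervals overlap, so these data do not order the groups, and for rab and vha the interval reaches down to the share of all genes. The pooled list held a summit for 11 sec, 16 vps, 7 rab, 4 snx and 12 vha genes, which put vha highest at 60% (38.7 to 78.1%) and rab lowest at 35% (18.1 to 56.7%). The vha genes therefore had pooled summits about as often as the sec genes but fewer IDR summits, and the intervals overlap in both lists.

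**Figure D1:**
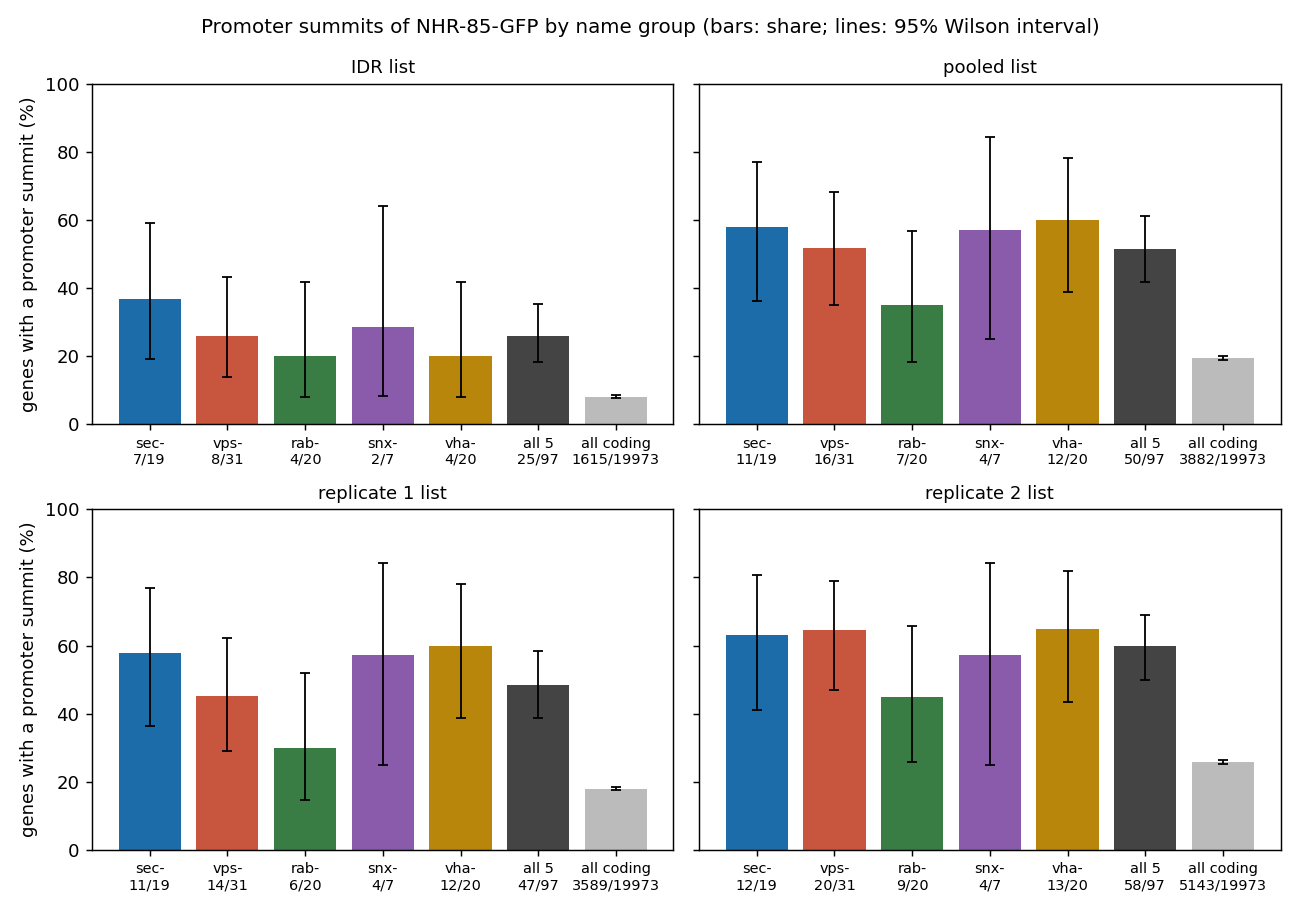
Share of genes with a promoter summit (%, y axis) in each name group, in all 97 genes and in all protein-coding genes, in the 4 peak lists, with 95% Wilson intervals as lines and counts under the bars. The bar for all 97 genes stands above the bar for all protein-coding genes in every list, while the intervals of the 5 name groups overlap.

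All 25 genes with an IDR summit also had a summit in the pooled list and in both replicates. The IDR list was built from these same data, so this overlap was largely fixed in advance. A summit in each of the replicates was found for 43 genes, 4 genes had one in replicate 1 only, 15 in replicate 2 only, and 35 in no list. The strongest summit of a gene can be a different peak in each replicate, as at rab-30, vha-5, vha-10, vha-19 and vps-36. The list of replicate 2 is the longer one, and so offers more peaks that could fall in a promoter. Signals are the authors' values in the peak caller's units, with a scaling to depth that is unknown. They are used below to rank and describe genes within a list, and between lists only in the correlations of the replicates. Over the 43 genes the order was alike in both replicates, with a Spearman rho of 0.92 and a Pearson r of 0.93 on log2 signals. Over the 25 genes with an IDR summit these were 0.87 and 0.92. Membership of these 25 followed a cut on pooled signal from the same 2 replicates, so they are not a separate check of agreement. These correlations describe genes of the same pair of libraries, pair the strongest summits even where these are different peaks, and carry no test.

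**Figure D2:**
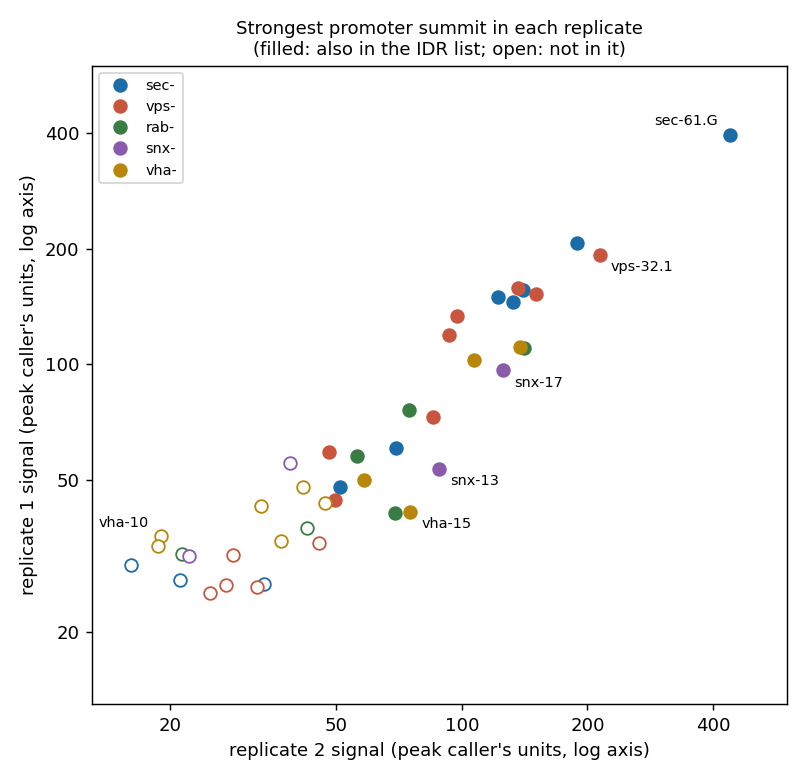
Signal of the strongest promoter summit of each of 43 genes in replicate 1 (y axis) and replicate 2 (x axis), in the peak caller's units on log axes, coloured by name group. Filled points are genes with an IDR summit. They fill the upper right, a place favoured by a list built from these same replicates, with sec-61.G highest in both.

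Among the genes of entry into the endoplasmic reticulum, all 3 subunit genes of the Sec61 translocon, the channel through which new proteins cross the membrane, had an IDR summit. The γ subunit gene sec-61.G had the strongest summit of the 97 genes, at 837 in the pooled list, 397 in replicate 1 and 439 in replicate 2, and it lay 235 bp upstream of the start on chromosome V. For sec-61.B, the β subunit gene, the values were 399 pooled, 207 in replicate 1 and 189 in replicate 2, at 484 bp upstream. That summit lay nearer to trap-3, 286 bp upstream of its start, a gene of the translocon-associated protein complex. The α subunit gene sec-61.A had 296 pooled, 156 in replicate 1 and 140.3 in replicate 2. Its summit lay 129 bp downstream of a transcript start in a 5′ UTR exon, and 544 bp upstream of rps-18, a ribosomal protein gene.

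The COPII coat, which forms vesicles at endoplasmic reticulum exit sites, differed between members. A COPII cargo adaptor gene, sec-24.1, had 270.1 pooled, 150 in replicate 1 and 122 in replicate 2, at 142 bp upstream. Its paralogue sec-24.2 had 49.3 pooled, 27.5 in replicate 1 and 21.1 in replicate 2, with no IDR summit. The exit site scaffold gene sec-16A.2 had a weak IDR summit of 98.05 pooled, 47.9 in replicate 1 and 51.02 in replicate 2, close to the lowest signal of the IDR list at 97.2. Its relative sec-16A.1 reached 47.1 in the pooled list. Of the coat genes sec-23 and sec-31, sec-23 had a summit in replicate 1 only (30.2) and sec-31 had none. The signal peptidase gene sec-11 had 51.8 pooled, 26.8 in replicate 1 and 33.5 in replicate 2.

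The exocyst, which tethers secretory vesicles at the plasma membrane, had an IDR summit at 2 of its 6 genes in the list. For sec-15 the values were 274 pooled, 145 in replicate 1 and 132 in replicate 2, at 254 bp upstream, and the same summit lay 47 bp upstream of C28G1.2. For sec-3 they were 128 pooled, 60.4 in replicate 1 and 69.7 in replicate 2, at 188 bp upstream. Of the other exocyst genes, sec-8 had a summit of 23.2 in replicate 2 only, and sec-5, sec-6 and sec-10 had none in any list.

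The ESCRT machinery, which buds membrane into endosomes and cuts membrane necks, held most of the vps summits. Of its 11 annotated genes in the list, 7 had an IDR summit (63.6%, 35.4 to 84.8%) and all 11 had a pooled summit, against 8.09% and 19.4% of all genes. The ESCRT-III filament gene vps-32.1 led with 405 pooled, 193 in replicate 1 and 214 in replicate 2, at 608 bp upstream and 445 bp upstream of icd-1. The ESCRT-III gene vps-60 had 296 pooled, 158 in replicate 1 and 137 in replicate 2, at 347 bp upstream. Another ESCRT-III gene, vps-2, had 105 pooled, 59.0 in replicate 1 and 48.1 in replicate 2. The order of these 3 filament genes by signal was vps-32.1, vps-60 and vps-2 in every list.

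ESCRT-II, which links cargo sorting to filament assembly, had IDR summits at vps-25 and vps-22. For vps-25 the values were 310.1 pooled, 153 in replicate 1 and 151 in replicate 2, at 10 bp downstream of a start in a 5′ UTR exon. For vps-22 they were 230.5 pooled, 133 in replicate 1 and 97.4 in replicate 2, at 637 bp upstream and 86 bp upstream of C27F2.9. The third ESCRT-II gene, vps-36, had 56.6 pooled and no IDR summit. The ATPase gene vps-4, whose product takes ESCRT-III filaments apart, had 165 pooled, 72.9 in replicate 1 and 85.5 in replicate 2, at 260 bp upstream. The ESCRT-I gene vps-37 had 99.3 pooled, 44.3 in replicate 1 and 49.6 in replicate 2, again near the lower edge of the IDR list. The other ESCRT genes had pooled summits alone or with weak replicate summits, at 58.4 for vps-24, 49.6 for vps-20 and 41.7 for vps-28.

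Other vps complexes had few IDR summits. HOPS and CORVET, the tethers of late and early endosomes, had none among 8 genes, a count that allows a share of up to 32.4%, and a pooled summit at 2 genes. The stronger of these was at vps-39, a HOPS gene, with 80.9 pooled, 34.3 in replicate 1 and 45.4 in replicate 2. Retromer, which returns receptors from endosomes, had an IDR summit at none of its 7 genes in the list (up to 35.4%) and a pooled summit at 3. Of the 4 GARP genes, which serve tethering at the Golgi, only vps-51 had a summit in any list. Its values were 208 pooled, 119 in replicate 1 and 93.2 in replicate 2, and the summit lay 216 bp upstream of vps-51 and 202 bp upstream of lin-35, the gene of the Retinoblastoma-like protein. The interval of ESCRT starts at 35.4%, above the end of that of HOPS and CORVET at 32.4%, while it meets that of retromer at its edge. These lists hold 4 to 11 genes each, no test between them was run, and the share of all genes lies inside the intervals of HOPS and CORVET, of retromer and of GARP. The lists also differ in genes that start close behind another gene on the same strand, as described below, so the gap cannot be tied to the complexes alone.

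**Figure D3:**
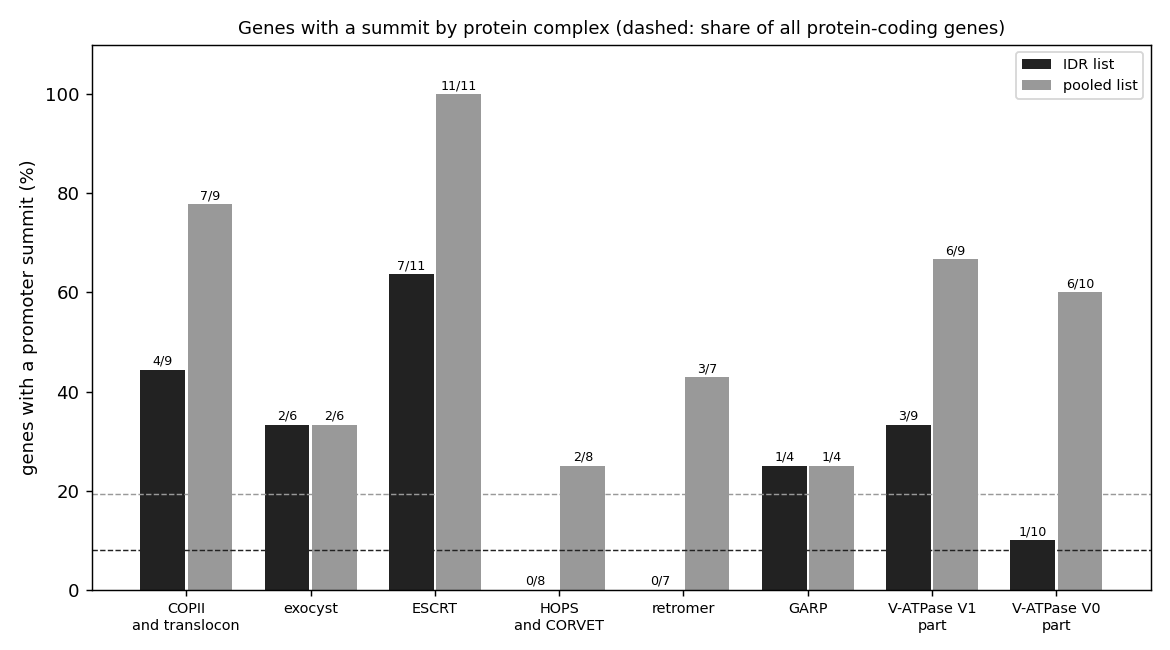
Share of genes with a promoter summit (%, y axis) by protein complex in the IDR list (black) and the pooled list (grey), with counts over the bars and dashed lines at the share of all protein-coding genes in the list of the same shade. ESCRT stands highest in both lists, with 7 and 11 of 11 genes, and HOPS with CORVET and retromer have no IDR summit.

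Among the Rab GTPases, IDR summits were found at rab-18, rab-7, rab-11.1 and rab-5. The gene rab-18, whose mammalian counterpart works at lipid droplets and the endoplasmic reticulum, had 254 pooled, 110 in replicate 1 and 141 in replicate 2, and its summit lay 29 bp downstream of a start in a 5′ UTR exon. The late endosome gene rab-7 had 158 pooled, 76.1 in replicate 1 and 74.6 in replicate 2. The recycling endosome gene rab-11.1 had 115 pooled, 40.9 in replicate 1 and 69.3 in replicate 2. The early endosome gene rab-5 had 112 pooled, 57.7 in replicate 1 and 56.2 in replicate 2.

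The rab summits mostly lay far from the rab starts. Those of rab-7, rab-5 and rab-11.1 lay 793, 745 and 689 bp upstream, and all 4 lay in the promoter of another gene as well. The rab-7 summit lay 180 bp upstream of W03C9.5 and the rab-11.1 summit 292 bp upstream of rpl-7, a ribosomal protein gene. The rab-5 summit lay 853 bp upstream of nmat-2, and the rab-18 summit 155 bp upstream of kbp-4. With a promoter of 500 bp upstream, 1 of 20 rab genes (5.00%) had an IDR summit, against 6.31% of all genes, so the rab count rests on the width of the window. Without an IDR summit, rab-1, which serves transport from the endoplasmic reticulum to the Golgi, had 86.0 pooled, 37.5 in replicate 1 and 42.5 in replicate 2. Also without one, rab-30 had 56.6 pooled, 31.9 in replicate 1 and 21.4 in replicate 2. These rab-30 values are not of one peak. The summit lay 278 bp upstream of a start in the pooled list and 275 bp in replicate 2, but 748 bp upstream of another start in replicate 1. A total of 11 rab genes had a summit in no list.

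The sorting nexin genes with an IDR summit were snx-17 and snx-13. The mammalian counterpart of snx-17 recycles receptors from endosomes, and the worm gene had 235 pooled, 96.4 in replicate 1 and 126 in replicate 2. Its summit lay 969 bp upstream of a transcript start and inside an intron of the same gene, the farthest upstream of the 25. For snx-13 the values were 144 pooled, 53.3 in replicate 1 and 88.3 in replicate 2, at 229 bp upstream and 382 bp upstream of snr-1, a gene of the splicing machinery. The retromer-associated gene snx-1 had 91.3 pooled, 55.2 in replicate 1 and 38.8 in replicate 2, just under the lowest IDR signal. For snx-3 they were 59.0 pooled, 31.7 in replicate 1 and 22.2 in replicate 2.

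The vacuolar ATPase has a cytosolic V1 part, which hydrolyses ATP, and a membrane V0 part, which carries protons. IDR summits were found at 3 of 9 V1 genes (33.3%, 12.1 to 64.6%) and 1 of 10 V0 genes (10%, 1.79 to 40.4%), against 8.09% of all genes. The V0 share is near that of all genes and its interval includes it. Pooled summits were found at 6 of 9 V1 genes and 6 of 10 V0 genes, against 19.4% of all genes. The V1 B subunit gene vha-12 had 250 pooled, 111 in replicate 1 and 138 in replicate 2, at 358 bp upstream. The V1 E subunit gene vha-8 had 212 pooled, 103 in replicate 1 and 107 in replicate 2, at 457 bp upstream and 129 bp upstream of C17H12.2. The V1 H subunit gene vha-15 had 126 pooled, 41.3 in replicate 1 and 75.3 in replicate 2, at 258 bp upstream. The difference in IDR share between the parts of the pump was within the intervals.

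The V0 proteolipid genes vha-1 and vha-2 lie one after the other on chromosome III. Upstream of vha-1 by 400 bp was an IDR summit of 111 pooled, 49.8 in replicate 1 and 58.4 in replicate 2, which also lay 500 bp upstream of sqv-3. A separate pooled summit lay 7 bp downstream of the vha-2 start, with 91.5 pooled, 43.5 in replicate 1 and 47.1 in replicate 2. The V1 A subunit gene vha-13 had 94.6 pooled, 47.8 in replicate 1 and 41.7 in replicate 2, the highest pooled signal among the 97 genes without an IDR summit. It lies downstream of cept-2 on the same strand, and an IDR summit of 246 lay 316 bp upstream of the cept-2 start.

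The remaining vha genes had weaker summits or none. In the pooled list alone or with replicate summits, the signals were 83.7 for vha-17, 55.8 for vha-19, 54.1 for vha-11, 51.5 for vha-10, 50.7 for vha-16 and 44.9 for vha-5. Of these, vha-17, vha-19 and vha-5 encode V0 subunits or V0-associated proteins and vha-11 and vha-10 encode V1 subunits, while vha-16 encodes the V0 d subunit. A summit in replicate 1 only was found for vha-3 (25.6), and in replicate 2 only for vha-14 (23.2) and vha-9 (24.7). The genes vha-4, vha-6, vha-7, vha-18 and vha-20 had a summit in no list, and these include vha-6, the intestinal V0 a subunit gene.

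**Figure D4:**
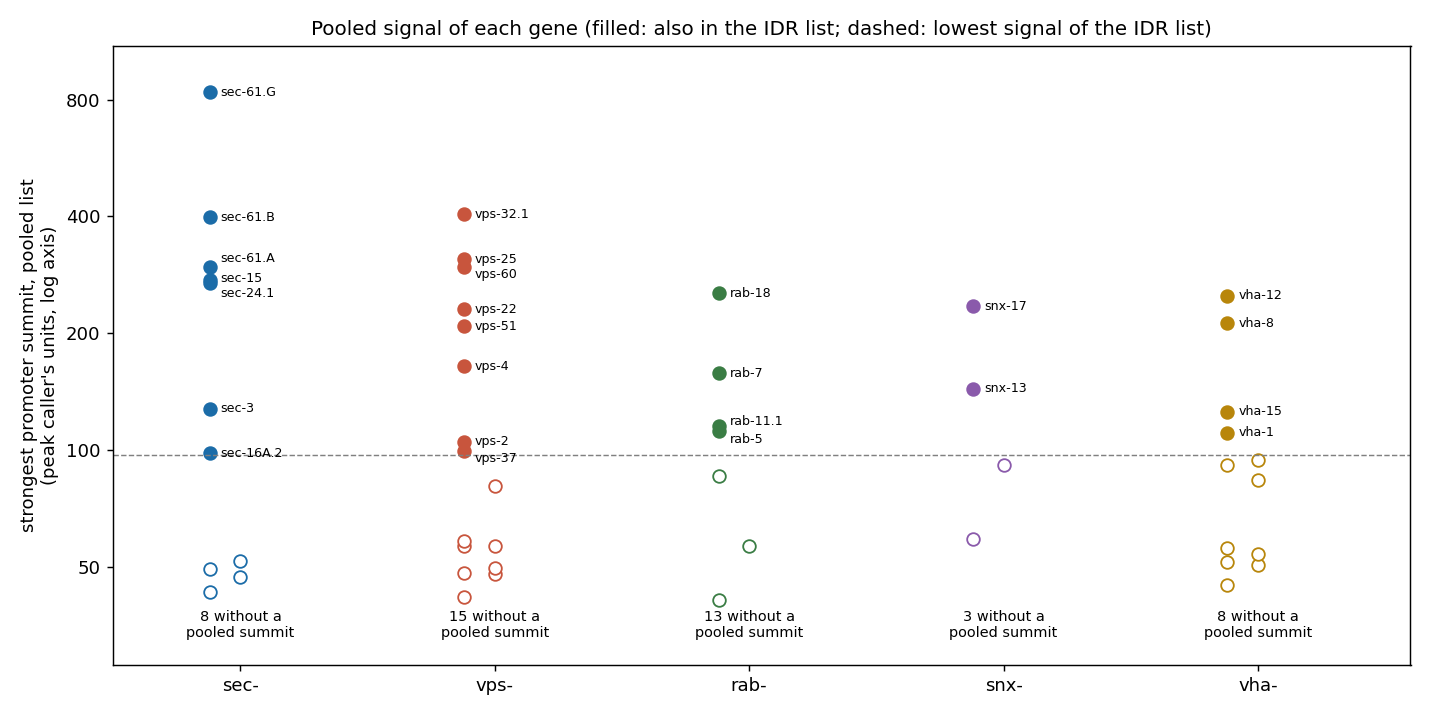
Signal of the strongest promoter summit of each gene in the pooled list (y axis, peak caller's units, log axis) by name group, with genes lacking a pooled summit counted at the bottom. Filled points also have an IDR summit and by construction lie above the dashed line at the lowest IDR signal of 97.2. The genes snx-1, vha-2 and vha-13 lie just below it.

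The 25 IDR summits were spread over the range of the list. Split by signal into 4 equal parts of 601 peaks, the list held 10 of them in its strongest part, then 5, 4 and 6. Their median signal was 212, against 170 over all protein-coding genes with an IDR summit. Taking the 2404 strongest peaks of replicate 2 alone gave 23 of the 97 genes and those of replicate 1 alone gave 22. Of the IDR genes, rab-11.1, sec-16A.2 and vha-15 were absent from the strongest peaks of replicate 1, vps-2 from those of replicate 2, and vps-37 from both, while snx-1 was added by replicate 1. The median signal was higher than that of all genes, but the weakest members sat at the edge of the list and changed with the replicate.

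The median IDR summit lay 260 bp upstream of the start, against 241 bp for all genes. Upstream summits made up 22 of 25 (88.0%), against 95.9% for all genes, and the 3 downstream ones were those of sec-61.A, vps-25 and rab-18. Among the 25 summits, 17 lay in no annotated gene, 4 in exons of non-coding RNA genes, 3 in the 5′ UTR exon of the gene and 1 in its intron. The 4 were the summits of sec-61.B, vps-32.1, sec-24.1 and rab-11.1. A summit that lay in the promoter of at least 1 other protein-coding gene was found for 15 of 25 genes (60%), against 46.1% for all genes. With such summits left out, 10 of 97 genes (10.3%) had an IDR summit, against 4.40% of all genes, so the share stayed above that of all genes at a lower level. For those 15 genes a peak list cannot tell which of the neighbouring genes, if any, the receptor serves. The same holds for sec-24.1, as only protein-coding genes were counted as sharing. Its summit lay in exons of the non-coding RNA genes F12F6.13 and F12F6.14.

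**Figure D5:**
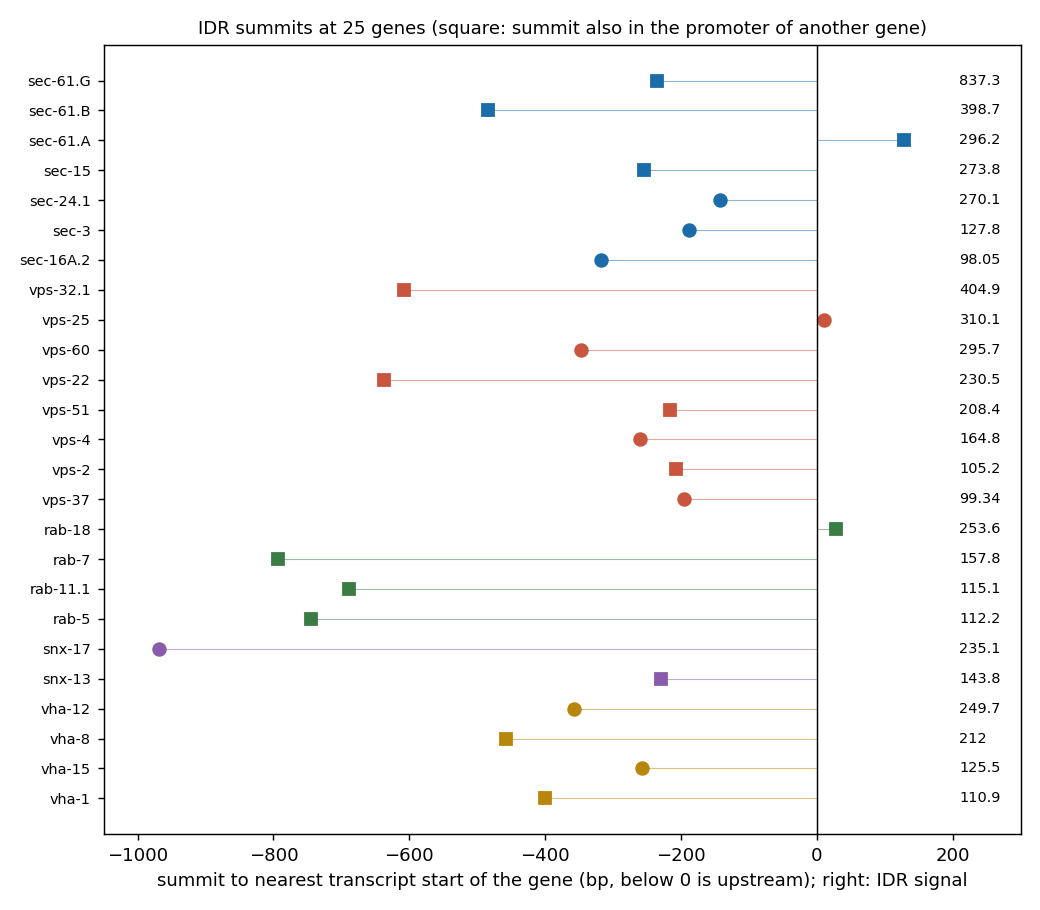
Distance from the IDR summit to the nearest transcript start of each of 25 genes (x axis, bp, below 0 upstream), coloured by name group, with the IDR signal at the right. Squares mark summits that also lie in the promoter of another protein-coding gene, among them all 4 rab genes, and snx-17 lies farthest upstream.

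In *C. elegans* many genes are transcribed in runs from one shared promoter. Of the 97 genes, 26 start within 500 bp downstream of another protein-coding gene on the same strand and are called operon-like here. An IDR summit was found at 2 of these (7.69%), sec-3 and sec-16A.2, against 5.01% of all operon-like genes. Of the other 71 genes, 23 had one (32.4%), against 8.77% of all other genes. Among the vps genes, 0 of 11 operon-like and 8 of 20 other genes had an IDR summit. The 11 include vps-8, vps-11, vps-16 and vps-41 of HOPS and CORVET and vps-26, vps-29 and vps-35 of retromer. They also include vps-53 and vps-54 of GARP, but of ESCRT only vps-28. The part of this difference in the shares of the complexes was not tested. The first gene of the run had an IDR summit for 6 of the 26 (23.1%), against 14.9% of all operon-like genes. These were rpb-7 ahead of sec-11, bmy-1 ahead of sec-6, cept-2 ahead of vha-13, vha-1 ahead of vha-2, sym-4 ahead of vha-20 and erh-1 ahead of vps-54. Whether these pairs share a transcript was not tested.

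By chromosome, IDR summits were found at 5 of 19 genes on chromosome I, against 8.86% of all genes there, at 3 of 18 on II, against 7.74%, and at 3 of 16 on III, against 11.7%. They were found at 5 of 18 genes on IV, against 7.10%, at 3 of 11 on V, against 6.35%, and at 6 of 15 on X, against 8.60%. Transgenes of this kind carry a copy of the tagged gene and commonly unc-119 as a marker, and such copies can raise reads at their loci. None of the 97 genes lay within 40 kb of nhr-85. Near unc-119 was vps-50, at 27828 bp, and its one summit was weak (16.3, in replicate 2 only).

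Other genes of the same pathways were counted in lists drawn up by role. Of 28 annotated coat, adaptor and small GTPase genes, 7 had an IDR summit (25%, 12.7 to 43.4%), against 8.09% of all genes, led by the clathrin adaptor gene apb-1 (315) and the dynamin gene dyn-1 (180). This list included sar-1, the GTPase gene that starts COPII assembly, at 111. Of 21 genes listed by name as SNARE and fusion genes, 3 had one (14.3%, 4.98 to 34.6%), and this interval includes the 8.09% of all genes. They were syx-5 (383), snb-1 (130.2) and use-1 (106). SNARE proteins merge membranes. The list also holds bet-1, which in the worm names a bromodomain protein gene and had no IDR summit. Lysosome and autophagy genes had one at 8 of 20 (40.0%, 21.9 to 61.3%), against the same 8.09%. The highest of these was at lgg-2 (630.5), an Atg8 family gene, followed by ccz-1 (281), ppk-3 (223) and hlh-30 (210), the gene of a transcription factor of lysosome and autophagy genes. V-ATPase genes with other names (unc-32 and spe-5) and Rab genes with other names (glo-1, aex-6 and unc-108) had no IDR summit, while unc-32 had 58.6 and unc-108 88.5 in the pooled list.

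The summit sequences shown above were also compared with those of other genes by the motifs they hold. Within 50 bp of the summit, the nuclear receptor half-site AGGTCA was found in 1 of 25 windows (4.00%), at sec-15, against 5.71% of 1297 other IDR windows in coding promoters. GAGAGA was found in 4 of 25 (16%), against 21.9%. The E-box CACGTG was in none of the 25, against 7.17%, and the intestinal site TGATAA was likewise in none, against 7.09%. In windows of the same length centred 250 bp upstream of all 19973 genes, the shares were 2.67% for the half-site, 6.48% for the repeat, 1.58% for the E-box and 10.6% for the intestinal site. At least 1 of these 4 was in 5 of 25 windows (20%), against 36.3% of the other IDR windows, and with 100 bp to each side in 14 of 25 (56.0%), against 56.3%. In that wider window the half-site was in 3 of 25 (12%), against 8.71%, and GAGAGA in 11 (44%), against 36.2%. The E-box was in 1 (4%), against 10.8%, and TGATAA in 2 (8%), against 17.3%. The direction for the half-site and the repeat thus changed with the window.

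The last pair of motifs was picked after the sequences of these windows had been seen, so their counts are a description. GTCTCG was in 10 of 25 windows (40.0%), against 9.71% of the other IDR windows and 2.80% of the windows upstream of all genes. ACGCAG was in 7 of 25 (28.0%), against 13.96% and 2.68%. At least 1 of the pair was in 14 of 25 (56.0%), against 21.9% and 5.25%, and sec-24.1, vha-12 and vha-15 held both. The 25 windows had a median GC content of 51.5%, against 45.5% in the other IDR windows and 33.7% upstream of all genes, and the part of base composition in these counts was not tested. In 24 of 25 windows every 31-base stretch occurred once in the assembly, the exception being vps-25 at 84.5%. A match names letters in the window and not a site that was shown to bind.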

How the data were processed

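ChIP-seq of NHR-85-GFP was taken from 1 group of 2 biological replicates of whole L1 larvae. Peaks were called per replicate and on pooled reads against a control, and the IDR list was built from these, per the files' descriptions. The sources used here name no aligner, peak caller or threshold. Each peak has a deposited signal, in the peak caller's units, and a deposited −log10 q-value, which is at its ceiling in 67.8% of IDR peaks and was not used to rank. No list gives read counts, so depth is unknown.

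The ce11 lists were used here, and the ce10 lists were not. Lines with the same interval were reduced to the one with the stronger summit. Starts came from Ensembl release 115 and sequence from RefSeq, both WBcel235, without the mitochondrial genome. Signals in the text are those of the strongest promoter summit of a gene in that list. Motifs were counted on both strands. Shares have 95% Wilson intervals. With 1 group there was no test between conditions. The assignment of summits to promoters, the overlap of peaks and the choice of the nearest start were tested on simulated data. Python 3.11.15, pandas 2.3.3, numpy 2.4.6, scipy 1.17.1 and matplotlib 3.10.9 were used.

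Members, lists and rules were chosen with earlier results of these data known. Named were all genes with an IDR summit, all vha genes and, per name group, the 2 strongest pooled summits without an IDR summit. Other sec and vps genes of the complexes, the first genes of runs, the split of translocon from COPII, the motifs GTCTCG and, like it, ACGCAG and the alternative without summits in several promoters were chosen after the values were seen. Names absent from the annotation were sec-61, vps-27, vps-32.2, rab-2, apm-2, arf-1.2 and arf-3.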

Additional observations from a re-analysis of the deposited data

How the results depend on the processing

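Of 73 alternatives, 53 kept the count within 1.5 times, and 70 of 72 alternatives for gene counts left the share above that of all genes. Both exceptions were rab genes, with 1 gene for a promoter of 500 bp upstream and 0 without summits in several promoters. The alternatives re-cut the same genes and peaks, so they are not independent of each other. Using only IDR peaks above the median signal gave 15 of the 97 genes, with 1 rab, 1 snx and 2 vha genes. Pooled peaks found in both replicates gave 41, with 4 snx and 9 vha genes. Without summits in the promoters of several genes the counts were 10 in all, 3 sec, 4 vps, 0 rab, 1 snx and 2 vha. Tying each summit to its nearest start gave 5 vps and 2 rab genes, and 500 bp upstream gave 1 snx gene. With 500 bp upstream the rab genes also had fewer summits in the pooled list (4 genes, 20% against 15.1% of all genes) and in replicate 1 (3 genes, 15% against 13.7%). The motif count went to 14 with 100 bp to each side, in windows that are longer by construction. Without replicate 1 the IDR count of 25 was 23 and without replicate 2 it was 22. No paired analysis was possible because there was 1 group. Depth is unknown, so a missing summit does not show that a promoter was unbound.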
